A study of Mus musculus with 60 samples.

Results

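Microglia are the resident macrophages of the brain, and 33 genes that mark them were followed by RNA sequencing in mouse prefrontal cortex. The genes were chosen by name, as a list of microglial markers, and all 33 were among the 18088 genes of the deposited table. The brains came from C57BL/6J mice on postnatal day 25, either WT or Het, the latter carrying 1 N2373K allele of the chromatin remodeler gene Chd8 (Chd8+/N2373K). Pups of both genotypes and sexes had received the antidepressant fluoxetine, the mood stabilizer lithium or a vehicle through the milk of their mothers from day 3 to day 24. This gave 12 groups of 5 libraries, which are WT vehicle, WT fluoxetine, WT lithium, Het vehicle, Het fluoxetine and Het lithium, each in males and in females. The labels do not name litters or doses, so pups of a group may share a mother, and a p-value covers the spread between libraries only.

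Microglia depend on the receptor Csf1r, which binds the growth factors Csf1 and Il34, and on transforming growth factor beta. They carry purine receptors such as P2ry12 that guide their processes, and the fractalkine receptor Cx3cr1 that reads a signal from neurons. They also make the C1q chains that start the classical complement cascade and take part in the removal of synapses during postnatal development. The transcription factor PU.1, made by Spi1, sets up the macrophage program, and its binding motif carries the core GGAA. In bulk tissue, fewer cells of a type and less RNA per cell cannot be told apart.

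Promoter windows of 250 bases upstream of the transcription start were taken from RefSeq (GRCm38.p6) for 26 of the 33 genes, which gave 32 windows. The 7-base motif AGGAAGT, a PU.1-type motif chosen after the expression values had been seen, was searched on both strands. It occurred in 9 of the 32 windows (28.1%), which belonged to 8 genes, and in 7.69% of the 32851 windows of all genes. Ptprc had overlapping windows that share a match, so that site was counted more than once. Of those 8 genes, 6 are shown, 4 whose RNA fell in fluoxetine-treated Het mice (P2ry12, Ptprc, Fcrls and Hpgds) and 2 whose RNA did not (C1qb and C1qc). Inpp5d and Sall1 are not shown. Neither passed the threshold given below in the average of both Het sexes, while Sall1 passed it, as lower, in Het males. Capitals mark the motif or its reverse complement, and each window is written 5′ to 3′ on the strand of its gene, the minus strand in all 6.
P2ry12: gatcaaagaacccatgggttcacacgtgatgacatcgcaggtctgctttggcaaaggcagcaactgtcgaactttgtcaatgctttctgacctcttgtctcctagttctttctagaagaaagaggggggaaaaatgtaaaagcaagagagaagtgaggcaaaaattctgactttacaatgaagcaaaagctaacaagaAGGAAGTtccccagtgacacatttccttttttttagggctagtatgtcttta
Ptprc: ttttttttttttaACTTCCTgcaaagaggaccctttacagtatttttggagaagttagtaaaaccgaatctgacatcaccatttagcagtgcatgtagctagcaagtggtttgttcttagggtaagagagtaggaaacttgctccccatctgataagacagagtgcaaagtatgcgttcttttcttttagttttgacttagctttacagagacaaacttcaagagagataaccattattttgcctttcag
Fcrls: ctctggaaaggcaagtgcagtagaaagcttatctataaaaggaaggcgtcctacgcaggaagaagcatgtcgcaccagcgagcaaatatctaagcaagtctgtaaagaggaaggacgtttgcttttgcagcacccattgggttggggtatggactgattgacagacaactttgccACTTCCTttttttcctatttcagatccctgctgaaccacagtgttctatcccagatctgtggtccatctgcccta
Hpgds: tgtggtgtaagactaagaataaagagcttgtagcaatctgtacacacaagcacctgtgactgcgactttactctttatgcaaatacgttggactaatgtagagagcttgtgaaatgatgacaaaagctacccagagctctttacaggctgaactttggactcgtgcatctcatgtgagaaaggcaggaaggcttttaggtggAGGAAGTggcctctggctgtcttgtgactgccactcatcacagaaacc
C1qb: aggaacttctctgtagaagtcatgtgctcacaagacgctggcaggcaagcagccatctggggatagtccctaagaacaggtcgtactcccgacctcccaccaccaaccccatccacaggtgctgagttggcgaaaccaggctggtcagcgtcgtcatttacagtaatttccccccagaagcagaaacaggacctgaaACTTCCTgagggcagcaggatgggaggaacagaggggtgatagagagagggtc
C1qc: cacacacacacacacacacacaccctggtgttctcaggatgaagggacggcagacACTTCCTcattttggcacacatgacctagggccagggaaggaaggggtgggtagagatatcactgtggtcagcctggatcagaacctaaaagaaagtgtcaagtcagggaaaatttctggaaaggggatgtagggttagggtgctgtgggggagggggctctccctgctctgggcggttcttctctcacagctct
The windows lie at chr3:59262986-59263235, chr1:138175127-138175376, chr3:87263525-87263774, chr6:65144731-65144980, chr4:136886201-136886450 and chr4:136892915-136893164, in that order. The motif was therefore present upstream of genes that moved and of genes that did not, and a match describes the letters of a window, not binding.

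Values are normalized counts, that is, read numbers scaled by a size factor, and the libraries held 24.05 to 31.65 M reads (M for mega, median 28.32 M). All 33 genes had reads in all 60 libraries, the lowest being 26 reads for Aif1, so none of the listed microglial markers was absent. The 12 neuron markers of the cortex summed to 272500 to 397300 normalized counts per library. Chd8 itself stood at 3094 ± 91.7 (SD, n = 30) in WT and 2671 ± 134 in Het libraries. It was lower in Het mice under vehicle, with a log2 difference of −0.23 (SE 0.03, adjusted p = 6.67e-06). Differences are on the log2(value + 1) scale, compare 5 libraries with 5 in each sex, and average both sexes where so said. They are written as a log2 value with its standard error (SE). The SE comes from 1 fit of all 12 groups, so it rests on their pooled spread and not on that of the groups compared. Group levels are means ± SD of 5 libraries. A gene was called changed where its Benjamini-Hochberg adjusted p over the 17807 genes tested with limma was under 0.05. Per kilobase of exon, with all annotated exons of a gene merged, the levels of the 33 genes spanned a wide range. Ctss, a lysosomal protease, was highest with a mean of 1112 normalized counts per kb, followed by C1qa with 831 and C1qb with 822. P2ry12 was the fourth with 515, C1qc the fifth with 474 and Csf1r the sixth with 444. Irf8, an interferon-regulated transcription factor, with 17.1, and Ptprc, the leukocyte phosphatase CD45, with 6.49 over 18313 bp of merged exon, stood at the low end.

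The levels of many microglial genes were lower in Het mice given fluoxetine. In the average of both sexes 18 of the 33 genes fell and none rose, where 16% of all tested genes fell. The median log2 difference of the 33 genes was −0.24, against 0.01 for all genes. In Het males 10 of 33 fell, where 10.7% of all genes fell, with a median of −0.25. In Het females 3 of 33 fell, where 8.04% of all genes fell, with a median of −0.24, so the share of called microglial genes in females was close to that of the whole table. Without Het fluoxetine female replicate 1, 8 fell in females, 7 without Het vehicle female replicate 2, and 1 without fluoxetine replicate 2, 3 or 5 or vehicle replicate 3 or 4 of the Het females. Of the 33 genes, 26 were below 0 in both sexes, 5 in 1 sex and 2 in neither. Het fluoxetine male replicate 3 was the lowest of all 60 libraries for 21 of the 33 genes. The same library was the highest of the 60 for Cd68 (271.1) and Fcgr3 (490.1). Without that library, 12 genes fell in the average of both sexes and only Aif1 fell in males, while without Het fluoxetine male replicate 1, the highest of its group for 28 of the 33, 19 fell in males. With only the compared groups in the fit, 10 members fell in the average and 0 in males. Of all 17807 genes tested, 2110 and 339 fell in those fits. With a score of vessel markers in each library as a covariate, 2 members fell and 3 rose in the average. Of all genes, 1566 fell and 1443 rose there.

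P2ry12 and P2ry13 lie within Med12l, Csf1r overlaps Hmgxb3 and Gpr34 overlaps Cask, each on the opposite strand, and Cx3cr1 overlaps genes on both strands. The kit keeps strand, but the strand setting of the counting is not named in the labels, so reads of these 5 genes may include some of their neighbours.

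**Figure D1:**
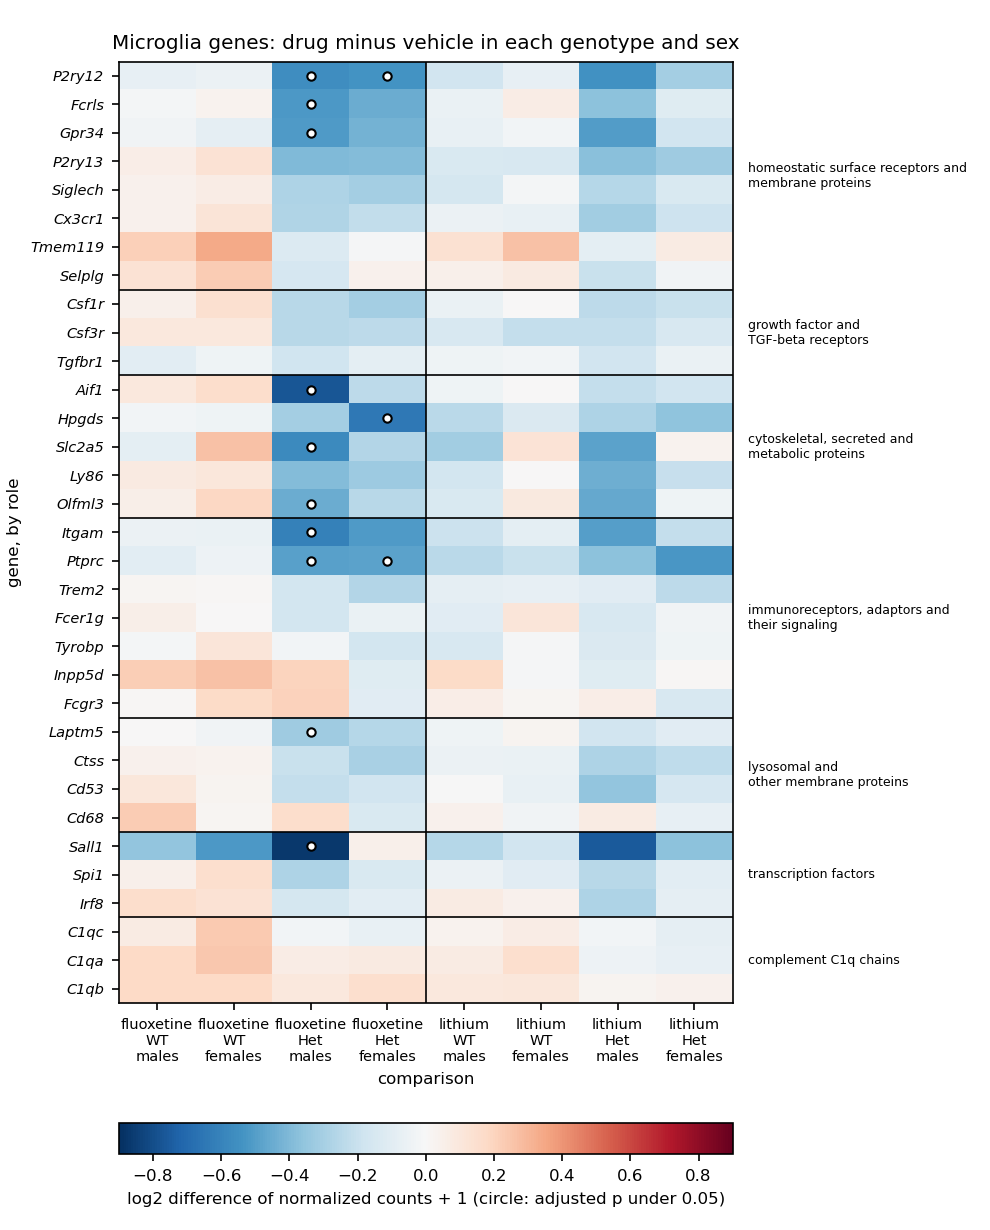
Log2 differences of the 33 genes, ordered by role, in the 8 comparisons of a drug with vehicle (colour, log2 scale). Circles mark genes called by limma, 10 for Het males and 3 for Het females given fluoxetine and none in the other 6 comparisons.

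Surface receptors of resting microglia made up 8 of the 33 genes, and 6 of them fell in the average of both Het sexes (median −0.34). P2ry12, the ADP receptor that directs microglial processes toward injury, was at 1654, 1541, 1554, 1733 and 1583 in the 5 Het vehicle males (replicates 1 to 5, as in all such series of values) and at 1796, 1447, 625, 1024 and 939 in the 5 Het fluoxetine males. In Het females it was at 1481, 1296, 1925, 1672 and 1352 with vehicle and at 1293, 947, 899, 1210 and 979 with fluoxetine. All 5 fluoxetine females lay below the lowest vehicle female, whereas in males the first replicate was above every vehicle library and the other 4 were below. P2ry12 fell, at −0.56 log2 (SE 0.17, adjusted p = 0.0115) in males, −0.54 log2 (SE 0.17, adjusted p = 0.0216) in females and −0.55 log2 (SE 0.12, adjusted p = 0.000267) in their average. In WT mice it averaged 1382 ± 189 in vehicle, 1323 ± 248 in fluoxetine and 1228 ± 153 in lithium males, and 1375 ± 105, 1343 ± 239.8 and 1308 ± 99.7 in the females of those treatments. With lithium, Het mice averaged 1128 ± 239.8 in males and 1251 ± 204 in females.

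P2ry13, a second ADP receptor, fell in the Het average, at −0.39 log2 (SE 0.12, adjusted p = 0.00776). Its WT means were 298 ± 44.1 in vehicle, 312 ± 47.3 in fluoxetine and 270.5 ± 29.3 in lithium males, and 315 ± 27.8, 354 ± 88.0 and 285 ± 31.7 in the females of those treatments. Its Het means were 346 ± 27.9 in vehicle, 281 ± 109.7 in fluoxetine and 266 ± 25.2 in lithium males, and 339 ± 56.0, 258 ± 42.8 and 270.4 ± 28.7 in the females of those treatments. Gpr34, a lysophosphatidylserine receptor, fell, at −0.47 log2 (SE 0.12, adjusted p = 0.00199) in the average and was also called in Het males. Gpr34 averaged 364 ± 66.4 in vehicle, 359 ± 70.3 in fluoxetine and 346 ± 46.7 in lithium males, and 368 ± 48.5, 350.3 ± 63.4 and 363 ± 49.4 in the females of those treatments among WT mice. Among Het mice Gpr34 averaged 409.5 ± 39.6 in vehicle, 306 ± 123 in fluoxetine and 291 ± 48.2 in lithium males, and 379.5 ± 66.4, 284 ± 51.6 and 334 ± 40.9 in the females of those treatments. Siglech, a sialic acid-binding lectin, fell, at −0.29 log2 (SE 0.09, adjusted p = 0.00775). It stood in WT mice at 371 ± 41.4 in vehicle, 382 ± 43.8 in fluoxetine and 334 ± 51.4 in lithium males, and 369 ± 36.7, 388 ± 43.8 and 364 ± 25.6 in the females of those treatments. In Het mice Siglech stood at 365 ± 39.7 in vehicle, 308 ± 81.0 in fluoxetine and 308 ± 54.1 in lithium males, and 383 ± 38.9, 309 ± 27.0 and 349.7 ± 50.3 in the females of those treatments.

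Cx3cr1, the fractalkine receptor, fell, by less, at −0.25 log2 (SE 0.09, adjusted p = 0.0297), a call kept in 14 of the 20 fits that left out 1 library. WT libraries had mean Cx3cr1 levels of 1375 ± 154 in vehicle, 1410 ± 116 in fluoxetine and 1319 ± 93.7 in lithium males, and 1429 ± 113, 1554 ± 152 and 1362 ± 88.8 in the females of those treatments. Het libraries had 1502 ± 126 in vehicle, 1300 ± 399 in fluoxetine and 1216 ± 174 in lithium males, and 1510 ± 298, 1278 ± 103 and 1311 ± 102 in the females of those treatments. Fcrls, an Fc receptor-like protein used as a microglial marker in mice, was at 863, 959, 903, 1065 and 881 in Het vehicle males and 1053, 904, 324, 674 and 557 in Het fluoxetine males. The female values were 859, 821, 1140, 981 and 844 with vehicle and 843, 644, 600.3, 746 and 583 with fluoxetine. The groups overlapped in both sexes, and Fcrls was called in males, at −0.52 log2 (SE 0.18, adjusted p = 0.0295), and in the average, at −0.48 log2 (SE 0.13, adjusted p = 0.00247). Its means in WT mice were 879 ± 75.3 in vehicle, 874 ± 133 in fluoxetine and 856 ± 177 in lithium males, and 902 ± 77.6, 936 ± 186 and 944 ± 82.3 in the females of those treatments. Het lithium mice averaged 738 ± 171 in males and 867 ± 146 in females. Tmem119, a membrane protein used to tell microglia from other macrophages, and Selplg, the ligand of P-selectin, completed the group without a call, at −0.07 log2 (SE 0.10, adjusted p = 0.626) and −0.06 log2 (SE 0.10, adjusted p = 0.696).

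**Figure D2:**
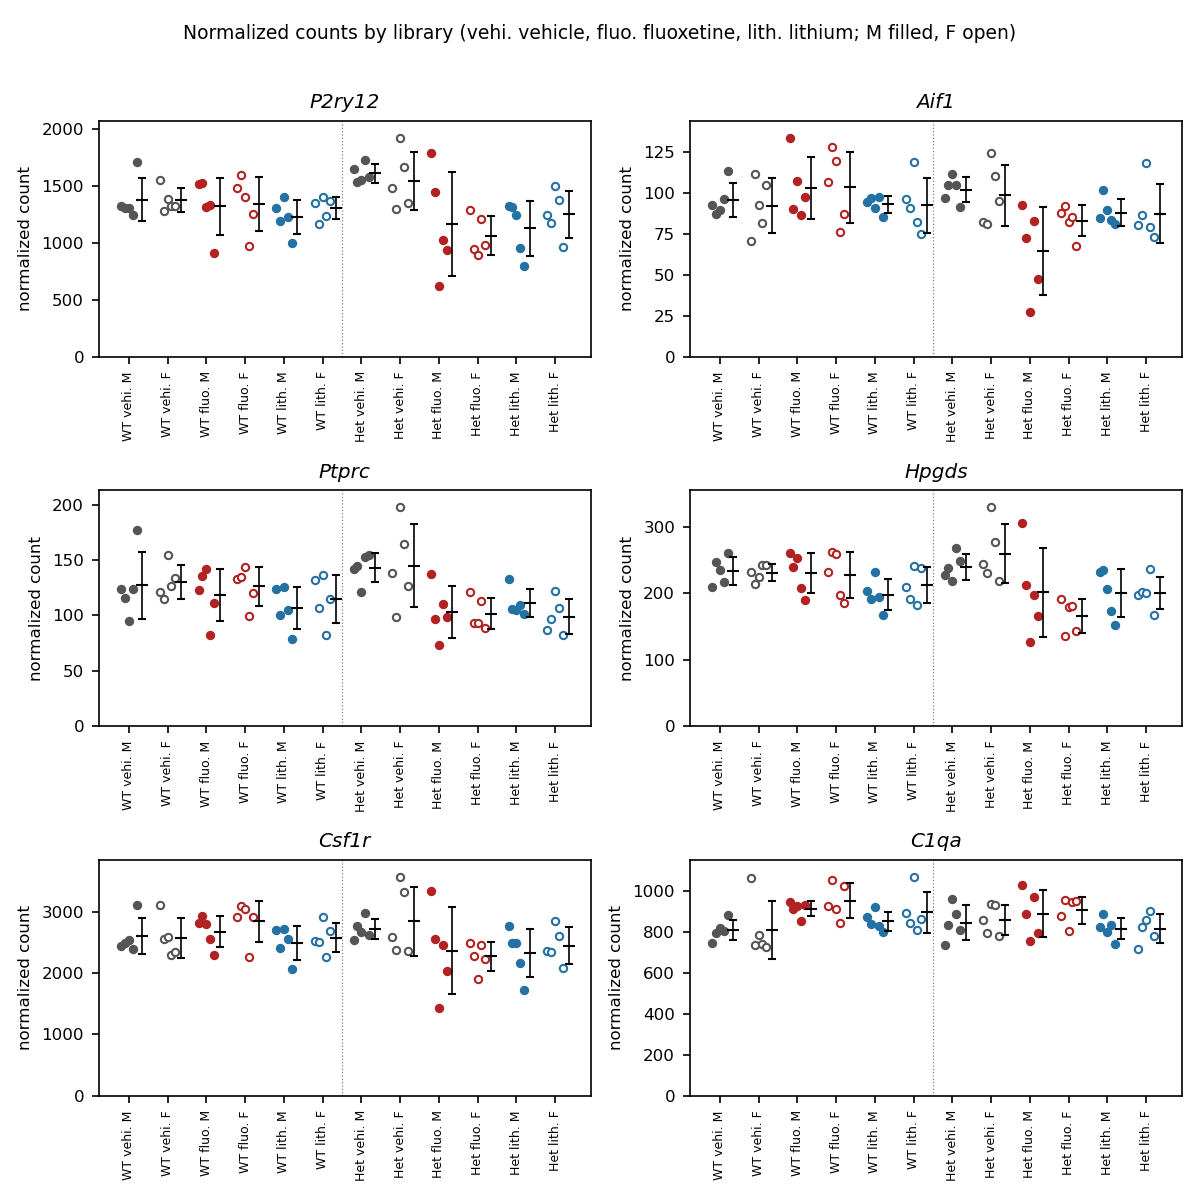
Normalized counts of P2ry12, Aif1, Ptprc, Hpgds, Csf1r and C1qa in the 60 libraries by group. Points are libraries (filled male, open female) and bars give the mean ± SD of 5; the Het fluoxetine males spread from 625 to 1796 for P2ry12, with replicate 3 lowest, while C1qa shows no such fall.

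The 5 cytoskeletal, secreted and metabolic genes all fell in the Het average (median −0.42, range −0.50 to −0.35). Aif1, the actin-binding protein known as Iba1, was at 96.5, 105, 111, 105 and 91.6 in Het vehicle males and 92.5, 72.6, 27.1, 82.8 and 47.2 in Het fluoxetine males. Its female values were 82.3, 80.9, 124, 110.1 and 94.7 with vehicle and 87.8, 92.0, 81.9, 85.0 and 67.2 with fluoxetine. In males 4 of the 5 fluoxetine libraries lay below every vehicle library, and in females 4 of the 5 lay within the vehicle range. Aif1 fell, at −0.77 log2 (SE 0.18, adjusted p = 0.00199) in males, was not called in females at −0.24 log2 (SE 0.18, adjusted p = 0.402), and fell in the average, at −0.50 log2 (SE 0.13, adjusted p = 0.00199). WT means of Aif1 were 95.5 ± 10.3 in vehicle, 103 ± 18.8 in fluoxetine and 92.8 ± 5.02 in lithium males, and 92.2 ± 16.7, 103 ± 21.7 and 92.4 ± 16.9 in the females of those treatments. Het lithium means were 87.9 ± 8.17 in males and 87.3 ± 17.9 in females.

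Hpgds, the hematopoietic prostaglandin D synthase, was at 244, 230.2, 329.7, 277 and 218 in Het vehicle females and 192, 136, 179.7, 180.4 and 143 in Het fluoxetine females. In males its values were 228, 239, 218, 268 and 249.5 with vehicle and 307, 213, 127, 198 and 166 with fluoxetine. The female groups did not overlap, whereas fluoxetine male replicate 1 was above every vehicle male. Hpgds fell, at −0.64 log2 (SE 0.14, adjusted p = 0.0014) in females and at −0.47 log2 (SE 0.10, adjusted p = 0.000217) in the average, and was not called in males at −0.31 log2 (SE 0.14, adjusted p = 0.107). WT libraries averaged 234 ± 21.3 in vehicle, 231 ± 30.3 in fluoxetine and 198 ± 23.2 in lithium males, and 232 ± 12.3, 228 ± 34.9 and 213 ± 26.7 in the females of those treatments. Lithium-treated Het mice averaged 200.4 ± 36.3 in males and 201 ± 24.4 in females.

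Slc2a5, a fructose transporter, was at 86.5, 92.6, 101, 102 and 82.4 in Het vehicle males and 102, 79.5, 32.3, 70.6 and 49.4 in Het fluoxetine males. The corresponding female values were 83.2, 77.8, 94.8, 97.9 and 72.5 and 77.8, 65.8, 68.5, 80.4 and 60.5. It fell in males, at −0.57 log2 (SE 0.17, adjusted p = 0.0134) and in the average at −0.42 log2 (SE 0.12, adjusted p = 0.00617), with 1 male fluoxetine library among the vehicle values and 4 below them. Mean levels of Slc2a5 in WT mice were 92.8 ± 5.62 in vehicle, 88.6 ± 17.6 in fluoxetine and 75.4 ± 14.6 in lithium males, and 86.2 ± 7.41, 105 ± 22.2 and 94.1 ± 11.5 in the females of those treatments. Under lithium, Het males averaged 66.8 ± 9.95 and Het females 86.9 ± 10.5. Olfml3, a secreted olfactomedin-like protein, fell in males, at −0.45 log2 (SE 0.15, adjusted p = 0.0249) and in the average at −0.35 log2 (SE 0.11, adjusted p = 0.00879). For Olfml3 the WT means were 554 ± 26.3 in vehicle, 579 ± 79.4 in fluoxetine and 510 ± 88.1 in lithium males, and 541 ± 25.3, 620.2 ± 97.1 and 578 ± 57.8 in the females of those treatments. The Het means of Olfml3 were 625 ± 55.5 in vehicle, 485 ± 177 in fluoxetine and 455 ± 64.6 in lithium males, and 563 ± 71.1, 474 ± 60.8 and 552 ± 97.1 in the females of those treatments. Ly86, also called MD-1, a partner of a Toll-like receptor relative, fell in the average, at −0.36 log2 (SE 0.12, adjusted p = 0.0229). Ly86 levels in WT mice averaged 199 ± 27.7 in vehicle, 213 ± 44.0 in fluoxetine and 179 ± 34.3 in lithium males, and 196 ± 16.9, 214 ± 42.0 and 198 ± 28.3 in the females of those treatments. Ly86 levels in Het mice averaged 234 ± 27.2 in vehicle, 189.6 ± 71.1 in fluoxetine and 172 ± 25.1 in lithium males, and 203 ± 23.1, 163 ± 29.6 and 177 ± 26.5 in the females of those treatments.

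Among 7 immunoreceptors, adaptors and their signaling partners, 3 fell in the Het average. Itgam, the CD11b chain of complement receptor 3, was at 724, 726, 664, 843 and 679 in Het vehicle males and 728, 659, 214, 539.7 and 440.2 in Het fluoxetine males. Its values in Het females were 658, 636, 832, 802 and 606 with vehicle and 609, 432, 436, 556 and 451 with fluoxetine. In females 4 of 5 fluoxetine libraries lay below the lowest vehicle library, and in males 4 of 5 lay below every vehicle library. Itgam fell, at −0.61 log2 (SE 0.19, adjusted p = 0.0148) in males and at −0.56 log2 (SE 0.13, adjusted p = 0.000857) in the average, the largest change of the 33 genes there. Its WT means were 661 ± 60.5 in vehicle, 641 ± 95.9 in fluoxetine and 588 ± 127 in lithium males, and 677 ± 60.5, 652 ± 95.1 and 636 ± 64.4 in the females of those treatments, and in Het lithium mice it averaged 528 ± 139 in males and 612 ± 111 in females.

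Ptprc, the phosphatase CD45 of all white blood cells, was at 142, 145, 121, 153 and 154 in Het vehicle males and 138, 96.8, 73.0, 110.4 and 98.8 in Het fluoxetine males. Het females had 138, 98.5, 197, 164 and 127 with vehicle and 121, 92.9, 92.9, 113 and 88.3 with fluoxetine. The groups overlapped through 1 high fluoxetine male and 1 low vehicle female. Ptprc fell, at −0.49 log2 (SE 0.16, adjusted p = 0.0238) in males, −0.48 log2 (SE 0.16, adjusted p = 0.0355) in females and −0.49 log2 (SE 0.12, adjusted p = 0.000891) in the average. In WT mice Ptprc averaged 127 ± 30.1 in vehicle, 119 ± 23.6 in fluoxetine and 106 ± 19.2 in lithium males, and 130.1 ± 15.1, 126 ± 17.2 and 114 ± 21.9 in the females of those treatments. Het lithium mice had 111 ± 12.7 in males and 98.9 ± 15.8 in females.

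Trem2, a lipid-sensing receptor whose variants are linked to Alzheimer's disease, fell in the Het average, at −0.22 log2 (SE 0.07, adjusted p = 0.0222), a call kept in 15 of the 20 fits that left out 1 library. Trem2 averaged 272 ± 18.5 in vehicle, 275 ± 18.6 in fluoxetine and 258 ± 31.7 in lithium males, and 269 ± 28.4, 273 ± 42.2 and 254 ± 9.89 in the females of those treatments in WT mice. It averaged 246 ± 29.8 in vehicle, 221 ± 40.5 in fluoxetine and 229 ± 29.7 in lithium males, and 268 ± 28.1, 223 ± 30.9 and 227 ± 8.58 in the females of those treatments in Het mice. Its signaling adaptor Tyrobp stood at −0.10 log2 (SE 0.09, adjusted p = 0.462), the Fc receptor gamma chain Fcer1g at −0.11 log2 (SE 0.10, adjusted p = 0.422), and the Fc receptor Fcgr3 at 0.05 log2 (SE 0.08, adjusted p = 0.655), so none of these 3 was called. Inpp5d, the phosphatase SHIP1 that dampens such receptors, was at 0.05 log2 (SE 0.07, adjusted p = 0.643) in Het mice.

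Of the 3 growth factor and transforming growth factor beta receptors, Csf1r and Csf3r fell and Tgfbr1 was at −0.13 log2 (SE 0.06, adjusted p = 0.0844). Csf1r, the receptor that microglia need to survive, was at 2546, 2778, 2677, 2978 and 2621 in Het vehicle males and 3351, 2564, 1438, 2466 and 2036 in Het fluoxetine males. Its female values were 2599, 2381, 3573, 3320 and 2369 with vehicle and 2488, 2278, 1911, 2466 and 2235 with fluoxetine. Fluoxetine libraries lay on both sides of the vehicle range in males, and the groups overlapped in both sexes. Csf1r fell in the average, at −0.28 log2 (SE 0.09, adjusted p = 0.0171), and was called in neither sex alone. The WT means of Csf1r were 2605 ± 293 in vehicle, 2682 ± 249 in fluoxetine and 2496 ± 272 in lithium males, and 2580 ± 329, 2849 ± 333 and 2582 ± 240 in the females of those treatments, and Het lithium means were 2333 ± 398 in males and 2453 ± 296 in females. Csf3r, the receptor of granulocyte colony-stimulating factor, fell, at −0.24 log2 (SE 0.09, adjusted p = 0.0417), a call kept in 10 of the 20 fits that left out 1 library. WT levels of Csf3r averaged 125 ± 15.7 in vehicle, 135 ± 22.2 in fluoxetine and 113 ± 13.7 in lithium males, and 131 ± 14.3, 140.4 ± 16.3 and 113 ± 15.7 in the females of those treatments. Het levels of Csf3r averaged 129 ± 20.2 in vehicle, 109 ± 24.8 in fluoxetine and 110.5 ± 12.5 in lithium males, and 126 ± 25.5, 106 ± 10.4 and 113 ± 13.5 in the females of those treatments.

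The lysosomal and other membrane proteins were 4, and 2 of them fell. Laptm5, a lysosomal membrane protein of blood cells, fell, at −0.32 log2 (SE 0.11, adjusted p = 0.0258) in Het males and −0.29 log2 (SE 0.08, adjusted p = 0.00271) in the average. Its level was 883 ± 63.8 in vehicle, 887 ± 67.8 in fluoxetine and 863 ± 91.6 in lithium males, and 882 ± 100.3, 863 ± 104 and 895 ± 58.8 in the females of those treatments in WT mice. In Het mice its level was 891 ± 69.8 in vehicle, 728 ± 182 in fluoxetine and 796 ± 127 in lithium males, and 891 ± 123, 741 ± 54.9 and 826 ± 51.1 in the females of those treatments. Ctss, the protease with the highest level per kilobase of the list, fell in the average, at −0.24 log2 (SE 0.09, adjusted p = 0.0254), a call kept in 15 of the 20 fits that left out 1 library. Ctss means were 1546 ± 231 in vehicle, 1579 ± 166 in fluoxetine and 1478 ± 103 in lithium males, and 1561 ± 195, 1596 ± 149 and 1513 ± 321 in the females of those treatments in WT mice. They were 1635 ± 132 in vehicle, 1455 ± 358 in fluoxetine and 1350 ± 112 in lithium males, and 1661 ± 311, 1347 ± 158 and 1405 ± 161 in the females of those treatments in Het mice. Cd53, a tetraspanin, was at −0.19 log2 (SE 0.11, adjusted p = 0.163) and Cd68, a lysosomal marker of phagocytes, at 0.01 log2 (SE 0.10, adjusted p = 0.959).

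The 3 transcription factors were not called in the Het average. Spi1 was at −0.21 log2 (SE 0.09, adjusted p = 0.0518), Irf8 at −0.12 log2 (SE 0.09, adjusted p = 0.286) and Sall1, a factor of microglial identity that is also made by some other brain cells, at −0.41 log2 (SE 0.17, adjusted p = 0.0573). In Het males Sall1 was called, at −0.87 log2 (SE 0.24, adjusted p = 0.0077), with values of 2130, 1239, 735, 1317 and 829 under vehicle and 573, 787, 359.8, 577 and 1110 under fluoxetine. In Het females it was at 583, 893, 685, 798 and 1104 with vehicle and 1339, 1028, 748, 596 and 597 with fluoxetine. Sall1 had the widest spread within groups of the 33 genes, with a median coefficient of variation of 25.9% over the 12 groups, and the groups overlapped in both sexes. WT means of Sall1 were 770.4 ± 150.3 in vehicle, 599 ± 91.9 in fluoxetine and 642 ± 93.6 in lithium males, and 976 ± 273, 669 ± 106 and 876 ± 303 in the females of those treatments, and Het lithium means were 707 ± 192 and 619 ± 83.4 in males and females.

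None of the 3 C1q chains fell. C1qa was at 0.07 log2 (SE 0.06, adjusted p = 0.362), C1qb at 0.12 log2 (SE 0.06, adjusted p = 0.131) and C1qc at −0.05 log2 (SE 0.07, adjusted p = 0.63) in the Het average. Their exons, merged over all annotated transcripts, are short (1040 to 1931 bp). The members with at most 2000 bp of merged exon had a median of −0.07 (10 genes, 2 called) against −0.29 for the 23 longer ones (16 called). The same medians over all genes were 0.03 and 0. Merged exon length can exceed that of a transcript, and whether length plays a part in the split among the 33 genes was not tested.

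In WT mice limma over all 12 groups called no member lower with fluoxetine. No member was called in WT males, where 1.34% of all genes were, and 3 members and 11.1% of all genes had an unadjusted p under 0.05. None was called in WT females, where 2.5% of all genes were, and 6 members and 17% of all genes had an unadjusted p under 0.05, and edgeR and DESeq2 on the recovered reads also called none in either sex. In the average of both WT sexes 2 of 33 rose and none fell, where 3.14% of all genes rose, and the median was 0.09. With only the compared groups in the fit 4 rose and 1 fell, Sall1 at −0.44 log2 (adjusted p = 0.0188), where 866 of all genes rose and 1220 fell. Sall1 varied with olfactory bulb markers, and the libraries highest in them, listed below, included WT vehicle but no WT fluoxetine libraries. C1qa rose by 0.21 log2 (SE 0.06, adjusted p = 0.0187). It was at 748, 794, 821, 803 and 885 in WT vehicle males and 948, 914, 925, 854 and 933 in WT fluoxetine males. In WT females it was at 1063, 737, 787, 742 and 726 with vehicle and 929, 1052, 914, 842 and 1027 with fluoxetine, and vehicle female replicate 1 was above every fluoxetine female. Its means were 852 ± 45.7 and 897 ± 101 in WT lithium males and females, and 846 ± 85.1 in vehicle, 889 ± 116 in fluoxetine and 816 ± 52.8 in lithium males, and 859.8 ± 73.8, 907 ± 65.5 and 816 ± 72.1 in the females of those treatments in Het mice.

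Inpp5d rose in WT mice by 0.24 log2 (SE 0.07, adjusted p = 0.0191). WT males were at 392, 423, 425, 447 and 499 with vehicle and 568, 548, 517, 499 and 419 with fluoxetine. WT females were at 562, 495, 479, 379.8 and 369.5 with vehicle and 520.5, 611, 544, 463 and 587 with fluoxetine. The groups overlapped in both sexes. Inpp5d averaged 492 ± 22.8 and 449 ± 31.0 in WT lithium males and females, and 449.9 ± 55.5 in vehicle, 517 ± 58.7 in fluoxetine and 417 ± 45.3 in lithium males, and 466 ± 54.9, 431 ± 46.7 and 468 ± 31.9 in the females of those treatments in Het mice. Without WT vehicle female replicate 4 or 5, 1 gene rose, and without WT vehicle female replicate 1, 5 rose. The smallest p-values in each WT sex belonged to C1q chains and Inpp5d. In females these were C1qa at 0.24 log2 (SE 0.08, adjusted p = 0.106), Inpp5d at 0.27 log2 (SE 0.10, adjusted p = 0.131) and C1qc at 0.24 log2 (SE 0.09, adjusted p = 0.167). In males they were Inpp5d at 0.22 log2 (SE 0.10, adjusted p = 0.364), C1qa at 0.18 log2 (SE 0.08, adjusted p = 0.414) and C1qb at 0.18 log2 (SE 0.09, adjusted p = 0.431).

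**Figure D3:**
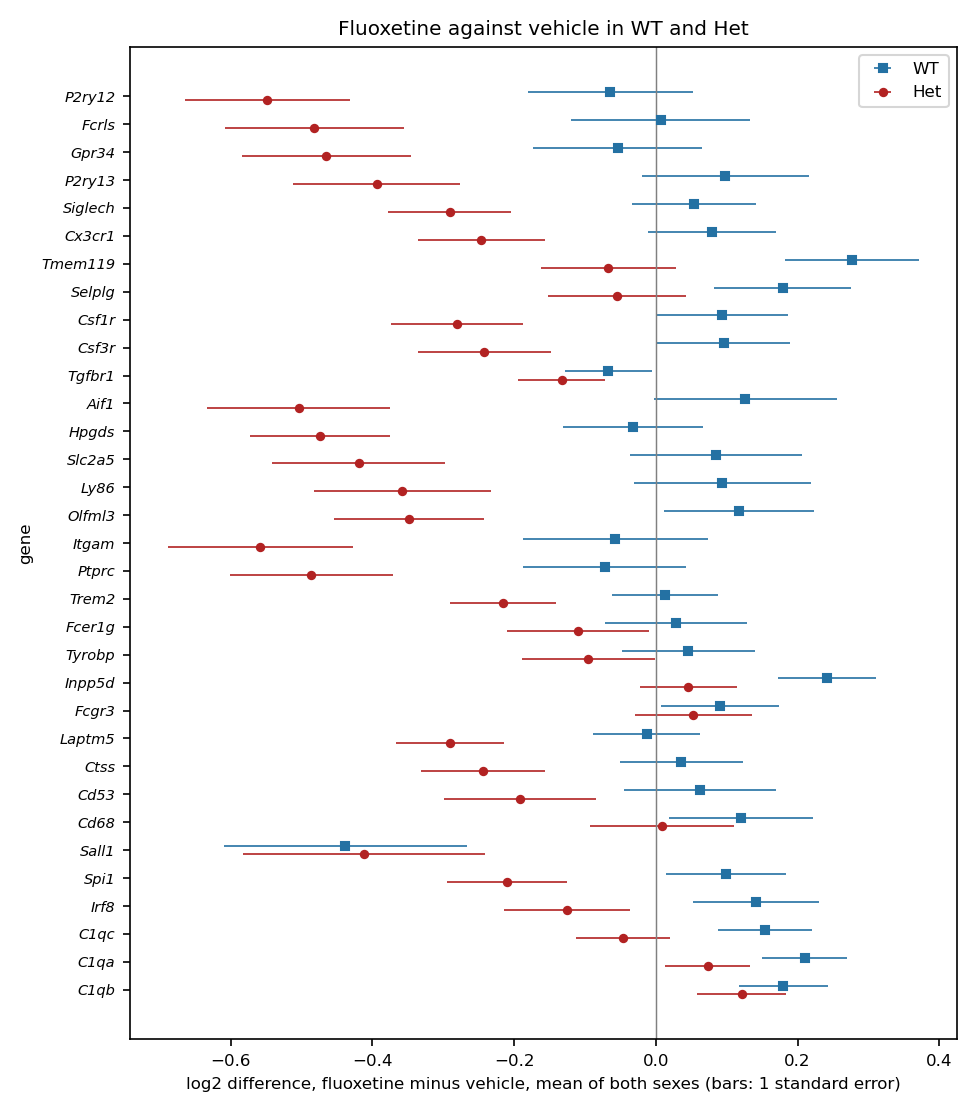
Log2 difference of fluoxetine from vehicle, averaged over both sexes, for the 33 genes (vertical axis, ordered by role) in WT mice (blue squares) and Het mice (red circles), with bars of 1 SE (horizontal axis, log2 scale). Of these genes, 28 lie below 0 in Het mice and 25 lie above 0 in WT mice.

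Fluoxetine's effect was compared between the genotypes directly, as the Het difference minus the WT difference. In the average of both sexes 32 of 33 members were below 0, with a median of −0.31. With the score of vessel markers as a covariate the median was −0.10, and none of all genes was called. No member was called by limma, where 1.7% of all genes were, and the smallest adjusted p was 0.0538, for Aif1 at −0.63 log2 (SE 0.18, adjusted p = 0.0538). Hpgds followed at −0.44 log2 (SE 0.14, adjusted p = 0.0692) and Olfml3 at −0.47 log2 (SE 0.15, adjusted p = 0.0727). At an unadjusted p under 0.05 there were 23 of 33 members, where 21.1% of all genes passed. DESeq2 on the recovered reads called 4 members lower, Aif1, Olfml3, Slc2a5 and Hpgds, and edgeR called none. Over all genes DESeq2 called 408 higher and 432 lower, and edgeR 121 and 196. Leaving out 1 library gave 0 to 16 called members, 16 without Het fluoxetine male replicate 1. In males alone none was called (0.927% of all genes), and 6 members and 17.3% of all genes had an unadjusted p under 0.05. None was called in females (0% of all genes), where 9 members and 13.2% of all genes did.

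Set side by side under fluoxetine, Het mice had lower levels than WT mice. This comparison shares the Het fluoxetine libraries with the one against Het vehicle. In the average of both sexes 10 of 33 members were lower in Het mice, where 3.88% of all genes were, with a median of −0.26. The 4 cytoskeletal, secreted and metabolic genes among them were Aif1 at −0.54 log2 (SE 0.13, adjusted p = 0.00926), Slc2a5 at −0.52 log2 (SE 0.12, adjusted p = 0.00809), Olfml3 at −0.36 log2 (SE 0.11, adjusted p = 0.0307) and Hpgds at −0.35 log2 (SE 0.10, adjusted p = 0.0256). The others were Fcrls, Siglech, Itgam, Trem2, Csf3r and Laptm5, from −0.43 for Fcrls to −0.27 for Laptm5. Without Het fluoxetine male replicate 3, 4 were called (Aif1, Trem2, Slc2a5 and Csf3r), and without Het fluoxetine male replicate 1, 20 were. With only the compared groups in the fit, or with the vessel score as a covariate, 0 were called. Of the 17807 genes tested, 78 and 67 were lower in those fits, against 691 in the main one. In males 1 member was lower, Aif1 at −0.77 log2 (SE 0.18, adjusted p = 0.0198), where 0.646% of all genes were. In females none was called by limma, edgeR or DESeq2, where 0.0393% of all genes were called, although 32 of 33 were below 0 and 15 had an unadjusted p under 0.05, as did 11.9% of all genes.

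Without drug no member was called between the genotypes. This held under vehicle in males (0.0168% of all genes called), females (0.0225%) and their average (0.0562%) by limma, edgeR and DESeq2, and 1 member in each sex had an unadjusted p under 0.05 (8.22% and 6.45% of all genes). In the average 25 of 33 members were above 0 in Het mice, with a median of 0.08, and none of the averages had an unadjusted p under 0.05, where 7.79% of all genes had. Under lithium none was called in males (0.00562% of all genes), females (0.0168%) or the average (0.0393%) by the same 3 tools. In that average 30 of 33 were below 0, with a median of −0.09. An unadjusted p under 0.05 was reached by 1 member in males, 0 in females and 1 in the average, and by 3.16%, 4.89% and 6.46% of all genes.

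By limma over all 12 groups, lithium was followed by fewer calls than fluoxetine, and the drugs were not tested against each other. The median of the 33 genes in Het males was −0.25 with either drug. In Het mice 4 of 33 members fell in the average of both sexes, where 3.84% of all genes fell, and 32 of 33 were below 0 with a median of −0.19. With the vessel score as a covariate none fell, C1qb rose by 0.15 log2 (adjusted p = 0.0477) and the median was −0.03. Over all genes 544 rose and 391 fell with that covariate. The 4 that fell were Ptprc at −0.44 log2 (SE 0.12, adjusted p = 0.0104), P2ry12 at −0.42 log2 (SE 0.12, adjusted p = 0.0164), Sall1 at −0.56 log2 (SE 0.17, adjusted p = 0.0286) and Hpgds at −0.32 log2 (SE 0.10, adjusted p = 0.0321). Sall1 varied with olfactory bulb markers and not with Csf1r, as described below. Of the 16 libraries highest in those markers, 3 were Het vehicle males, 2 Het vehicle females and 1 a Het lithium male. The fluoxetine and lithium comparisons use the same Het vehicle libraries. DESeq2 on the recovered reads called 8 members lower, where it called 939 of all genes lower and 1098 higher. Leaving out 1 library gave 2 to 8 called members, 8 without Het vehicle female replicate 2 and 2 without Het lithium male replicate 4 or 5 or Het vehicle male replicate 4. Of the 2 sexes, neither had a called member by limma. In Het males 2% of all genes were called. An unadjusted p under 0.05 was reached by 16 members and 19.6% of all genes, and vehicle and lithium values did not overlap for 8 members and 4.35% of all genes. P2ry12 was lowest in p there, at −0.54 log2 (SE 0.17, adjusted p = 0.0628), before Sall1 at −0.76 log2 (SE 0.24, adjusted p = 0.0734) and Olfml3 at −0.46 log2 (SE 0.15, adjusted p = 0.0763). DESeq2 called 3 members in Het males and 1 in Het females. In Het females 0.629% of all genes were called, and 3 members and 13.8% of all genes had an unadjusted p under 0.05, with Ptprc at −0.52 log2 (SE 0.16, adjusted p = 0.112), Hpgds at −0.36 log2 (SE 0.14, adjusted p = 0.217) and Trem2 at −0.23 log2 (SE 0.11, adjusted p = 0.312).

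In WT mice lithium changed no member by limma, edgeR or DESeq2 in males, where 0.0786% of all genes were called, in females, where 0.118% were, or in their average, where 2.97% were. No member had an unadjusted p under 0.05 in males (9.09% of all genes) or females (11.3%), and 1 had in the average (17.7%). The smallest p-values in WT males were those of Slc2a5 at −0.32 log2 (SE 0.17, adjusted p = 0.601), Inpp5d at 0.17 log2 (SE 0.10, adjusted p = 0.612) and Hpgds at −0.25 log2 (SE 0.14, adjusted p = 0.619). In WT females they were those of Tmem119 at 0.27 log2 (SE 0.14, adjusted p = 0.453), C1qa at 0.15 log2 (SE 0.08, adjusted p = 0.496) and Csf3r at −0.21 log2 (SE 0.13, adjusted p = 0.568). In the test of a different lithium effect between the genotypes, limma, edgeR and DESeq2 called no member in males, females or the average, where 0%, 0% and 0% of all genes were called. An unadjusted p under 0.05 was reached by 1, 0 and 1 members, and by 3.87%, 2.17% and 3.45% of all genes. The same 3 tools called no member for a different fluoxetine effect between the sexes in WT (0% of all genes) or Het mice (0.0112%). An unadjusted p under 0.05 was reached by 0 members and 2.68% of all genes in WT and by 3 members and 12.2% in Het mice. For lithium they called none in WT (0%) or Het mice (0%), where 0 members and 2.35% of all genes, and 2 members and 5.78%, had an unadjusted p under 0.05. Over all 12 groups none was called between males and females, where 0.14% of all genes were, and 2 members and 3.63% of all genes had an unadjusted p under 0.05.

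Genes that act with this list were followed in the same Het comparison with fluoxetine. Among 50 further microglial genes, 18 fell and 6 rose, with a median of −0.15, where 16% of all genes fell and 16.9% rose. The same shares of all genes stand behind the counts of the other lists in Het mice with fluoxetine. Dock8, a guanine nucleotide exchange factor of leukocytes, fell, at −0.50 log2 (SE 0.10, adjusted p = 7.16e-05), the sialic acid-binding receptor Cd33 at −0.43 log2 (SE 0.08, adjusted p = 7.96e-05) and Cmtm6 at −0.27 log2 (SE 0.06, adjusted p = 0.00019). The Golgi protein Golm1 rose by 0.22 log2 (SE 0.05, adjusted p = 0.000332) and the phagocytic receptor Mertk by 0.25 log2 (SE 0.07, adjusted p = 0.00477). Mertk rose in WT mice as well, by 0.29 log2 (SE 0.07, adjusted p = 0.00552). In WT mice 5 of the 50 rose and none fell, where 3.14% of all genes rose.

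Of 11 ligands and niche genes for these receptors, 2 rose and 2 fell in Het mice with fluoxetine, close to the shares of all genes. Csf1, a growth factor that binds Csf1r, fell in Het mice, at −0.28 log2 (SE 0.05, adjusted p = 4.34e-05), and Il34, which binds the same receptor, was at −0.01 log2 (SE 0.06, adjusted p = 0.95). In WT mice Il34 rose by 0.21 log2 (SE 0.06, adjusted p = 0.0113). Tgfb1 fell in Het mice with fluoxetine, at −0.44 log2 (SE 0.09, adjusted p = 0.000101) and with lithium at −0.30 log2 (SE 0.09, adjusted p = 0.0207). Nrros, which anchors latent transforming growth factor beta on microglia, rose in Het mice with fluoxetine by 0.46 log2 (SE 0.09, adjusted p = 4.39e-05) and in WT mice by 0.43 log2 (SE 0.09, adjusted p = 0.000571). Cx3cl1, the ligand of Cx3cr1, was at −0.03 log2 (SE 0.06, adjusted p = 0.724) and Tgfb2 at −0.06 log2 (SE 0.08, adjusted p = 0.593) in Het mice.

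Of 24 activation genes 6 fell and 1 rose in Het mice. Cst7, a cystatin made by activated microglia, fell, at −1.28 log2 (SE 0.44, adjusted p = 0.0223), the antigen-presenting H2-Aa at −0.44 log2 (SE 0.15, adjusted p = 0.0238) and the phagocytic receptor Axl at −0.25 log2 (SE 0.07, adjusted p = 0.0047). Of 18 interferon genes 1 rose and 1 fell. Of 21 complement and phagocytosis genes 4 rose and 2 fell. Ctsb, a lysosomal protease, rose by 0.21 log2 (SE 0.04, adjusted p = 2.67e-05), the complement inhibitor Cd59a rose by 0.73 log2 (SE 0.14, adjusted p = 7.44e-05), and Mfge8, a bridge between phagocytes and dying cells, fell, at −0.44 log2 (SE 0.11, adjusted p = 0.00138). Complement C3 was at −0.49 log2 (SE 0.35, adjusted p = 0.289).

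Markers of other cells were followed in the same Het libraries. Of 15 border-associated macrophage markers 5 fell and none rose, with a median of −0.42. Mrc1, their mannose receptor, fell, at −0.35 log2 (SE 0.12, adjusted p = 0.0151), Stab1 at −0.48 log2 (SE 0.09, adjusted p = 5.13e-05) and Dab2 at −0.46 log2 (SE 0.08, adjusted p = 1.74e-05), whereas Cd163 was at 0.13 log2 (SE 0.12, adjusted p = 0.446). Their summed level was 2243 to 2739 normalized counts in Het vehicle males and 2022 to 3240 in Het vehicle females. It was 1889 to 2719 and 1919 to 2201 in the Het fluoxetine males and females. In WT mice 4 of the 15 rose and none fell, where 3.14% of all genes rose. Among the 4 were Lyve1, by 0.68 log2 (SE 0.15, adjusted p = 0.00125), and Cd163, by 0.40 log2 (SE 0.12, adjusted p = 0.0305). Of 5 blood leukocyte markers in the table Lcn2 rose by 1.79 log2 (SE 0.31, adjusted p = 1.91e-05), and Ly6c2 fell, at −1.08 log2 (SE 0.27, adjusted p = 0.00149) and Ccr2 at −0.69 log2 (SE 0.19, adjusted p = 0.00365) in Het mice.

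Of 14 endothelial and mural markers 7 fell in Het mice and none rose (median −0.22), with Tie1 at −0.63 log2 (SE 0.10, adjusted p = 7.01e-06), Rgs5 at −0.52 log2 (SE 0.10, adjusted p = 8.85e-05) and Cldn5 at −0.33 log2 (SE 0.07, adjusted p = 0.00026). None of the 14 was at 0, and their summed level was 16260 to 18410 in Het vehicle males and 11910 to 18520 in Het fluoxetine males. In females it was 13800 to 20700 with vehicle and 11930 to 15560 with fluoxetine. Of 9 leptomeningeal markers 6 fell and none rose (median −0.44), with Col3a1 at −0.76 log2 (SE 0.16, adjusted p = 0.000186). Their summed level was 6690 to 7745 and 5270 to 10220 in Het vehicle males and females, and 5186 to 10100 and 5002 to 6475 in those given fluoxetine. The 33 microglial genes summed to 20180 to 22550 and 18010 to 24290 in Het vehicle males and females, and to 12200 to 23590 and 15700 to 19430 with fluoxetine. Of 12 astrocyte markers 4 fell and 1 rose, and of 12 neuron markers 4 rose and 1 fell.

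The library values of several of these marker lists and of the microglial genes varied together. Each library's deviation from its group mean was used, so that differences between groups played no part. A score of the 14 endothelial and mural markers correlated with Csf1r over the 60 libraries, with a Pearson r of 0.815 and a Spearman rho of 0.817. Its permutation p, adjusted over 9 such relations, was 2.25e-05, and r was 0.791 without the 2 libraries farthest from the median. Border macrophage, leptomeningeal and astrocyte scores had an r of 0.723, 0.697 and 0.776. The neuron score went the other way, with r = −0.325 (adjusted permutation p = 0.0363). So did a score of glucocorticoid-responsive genes, with r = −0.485 (adjusted permutation p = 0.00448). Erythrocyte markers had an r of 0.474 (adjusted permutation p = 0.00607). Oligodendrocyte and myelin markers, with −0.239, and olfactory bulb markers, with −0.097, did not pass 0.05. With the endothelial and mural score as a covariate, an adjustment added after the values were seen, 5 members were called in the Het average with fluoxetine. P2ry12 (−0.24) and Hpgds (−0.22) were lower, and C1qa (0.22), C1qb (0.28) and Inpp5d (0.18) were higher, and the median of the 33 genes was −0.04. The score itself ran from 0.022 to 0.217 in Het vehicle males and from −0.391 to 0.263 in Het fluoxetine males, and from −0.235 to 0.399 and −0.373 to 0.012 in the females, so its part in the result and that of the drug cannot be told apart.

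**Figure D4:**
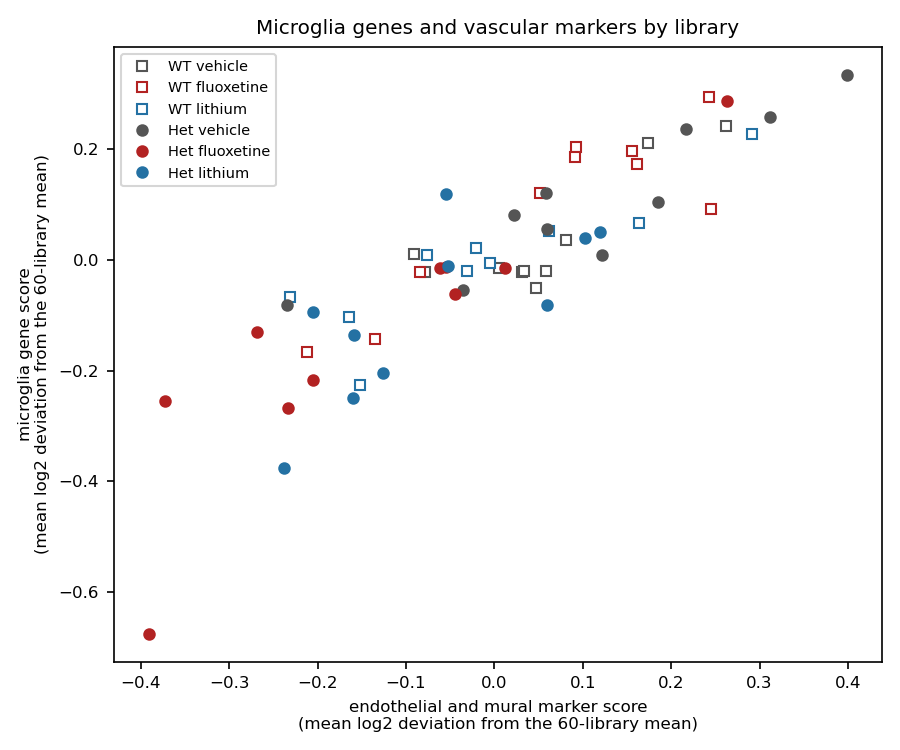
Mean log2 deviation of the 33 microglial genes against that of the 14 endothelial and mural markers in the 60 libraries, each centered over all libraries (open squares WT, filled circles Het, colour by treatment). Libraries low in one score tend to be low in the other, and Het fluoxetine male replicate 3 has the lowest microglial score, −0.675.

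Within the list the genes varied together to different degrees. Over the 60 deviations from group means, the correlation with Csf1r had a median r of 0.784 among the other 32 genes and was over 0.5 for 28 of them. Laptm5 was closest to Csf1r with r = 0.933 (rho = 0.935, 0.907 without the 2 farthest libraries). It was followed by Cx3cr1 with 0.92 and P2ry12 with 0.917, and the permutation p of P2ry12, adjusted over 32 relations, was 1e-05, the smallest that 100000 resamples can give. Cd68 with −0.063 and Fcgr3 with −0.039 did not follow Csf1r, and neither did Sall1 with 0.245 (permutation p, adjusted over the same relations, of 0.154).

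Sall1 followed another set of markers. A score of 15 olfactory bulb markers, which differed widely between libraries of the same group, correlated with Sall1 at r = 0.862 (rho = 0.872, 0.836 without the 2 farthest libraries). The permutation p of Sall1, adjusted over the 33 genes, was 0.00033. Of the others only Inpp5d passed 0.05, with r = −0.466 (adjusted permutation p = 0.0213). By rho, at −0.429, Inpp5d did not pass (adjusted permutation p = 0.064). In the 16 libraries with the highest scores Sall1 was 748 to 2130 (median 1107), and in the other 44 it was 360 to 847 (median 658). Those 16 libraries included 3 Het vehicle males and 2 Het fluoxetine males, 2 Het vehicle females and 3 Het fluoxetine females, 1 Het lithium male, 1 vehicle male and 2 vehicle females of WT, and 2 WT lithium females. Without these 16, no member was called in Het males with fluoxetine, Sall1 included. That comparison was left with 2 vehicle and 3 fluoxetine libraries, and 181 of all genes fell in it. In the Het average with fluoxetine 10 members and 1561 of all genes fell, and the median of the 33 genes was −0.30. With lithium, 2 members and 229 of all genes fell in the Het average.

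**Figure D5:**
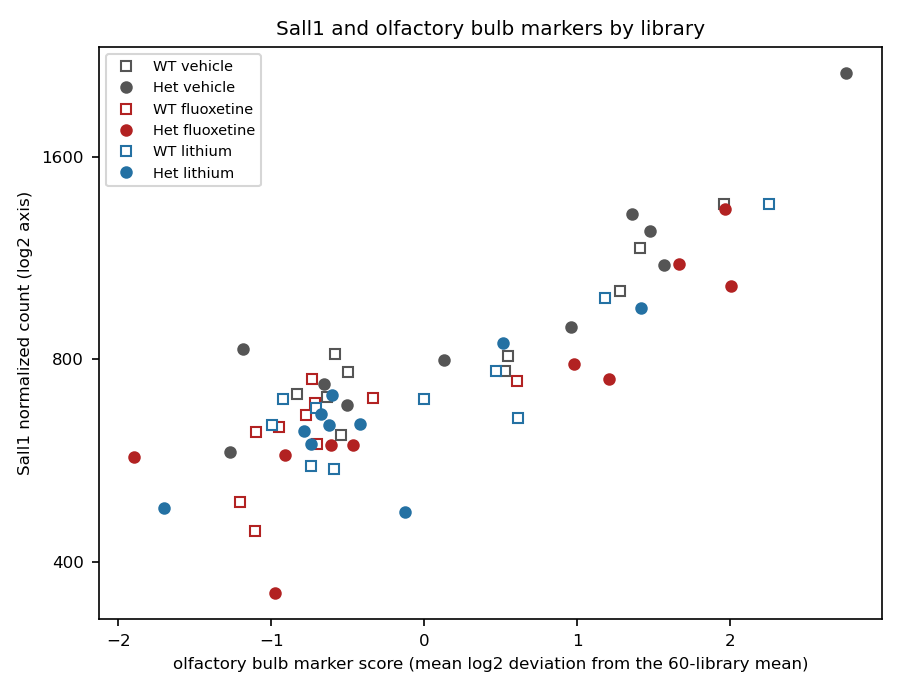
Normalized counts of Sall1 (log2 axis) against the score of 15 olfactory bulb markers in the 60 libraries. Colour gives the treatment, open squares are WT and filled circles Het libraries. Sall1 ran from 360 to 2130, and the library with the highest score, a Het vehicle male, had the highest count.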

How the data were processed

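Libraries were made with the TruSeq Stranded mRNA kit, per the labels' protocols. Per the submitters' processing notes, the build was GRCm38 and the tools were R 3.6.0, DESeq2 1.19.11 and Salmon 0.11.2, with no roles given. The authors deposited a normalized signal, and 100% of its values were whole reads times 1 step per library (tolerance 0.001), so it is reads divided by a size factor. Gene names came from GENCODE M21 for 18077 of 18088 genes. The deposited signal was taken to log2(value + 1), which understates changes of low genes, and 17807 genes reaching 10 in 5 or more libraries were kept. In R 4.3.3, limma 3.58.1 with an intensity trend fitted 12 group means over 60 libraries (48 residual degrees of freedom), with two-sided tests in 32 comparisons. Adjusted p-values are Benjamini-Hochberg values within a comparison. The count tests on the recovered reads used edgeR 4.0.16 and DESeq2 1.42.0; for fluoxetine in the Het average edgeR called 2836 genes higher and 2909 lower. The design allowed edgeR or limma, and the normalized values led to limma. A list's score is the mean log2 deviation of its genes from their means over the 60 libraries. Alternatives covered scaling, pseudocount, filter, libraries in the fit and replicates. Replicate pairs within groups (120) had a chi-square per degree of freedom of 4.12 to 69.97, so none was 1 library deposited in 2 columns. The procedure was tested on simulated data. The 33 genes and all lists were chosen with earlier results of these data known. Values in every group are given for members called in a comparison and tests for the 3 smallest p-values per drug comparison, and from other lists for up to 4 genes per comparison and for a few ligands and macrophage genes.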

Additional observations from a re-analysis of the deposited data

Results flagged for a closer look

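In 396 sets of 5 libraries (33 genes in 12 groups), 1 library stood apart from the other 4 by Dixon's test in 23, and chance gives about 1 in 20. WT vehicle male replicate 5 accounted for 9 of them, all high. It had P2ry12 at 1716 (others 1245 to 1325), Cx3cr1 at 1640 (1263 to 1364), Csf1r at 3120 (2402 to 2551) and C1qb at 956.3 (794 to 841). It also had Tyrobp at 294.2 (259 to 268), Laptm5 at 993.2 (829 to 870.1), Fcgr3 at 446.3 (304 to 327), Cd53 at 310.9 (204 to 234) and Irf8 at 146.5 (95.7 to 106). WT lithium male replicate 5 was high for Cd68 at 245.3 (143 to 170) and Fcgr3 at 444.6 (327 to 346), and low for Ly86 at 118.6 (189 to 204) and Fcer1g at 93.3 (139 to 152).

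The other 10 were spread over 10 libraries. In WT females they were P2ry13 at 266.6 in vehicle replicate 2 (others 316 to 334), C1qa at 1063 in vehicle replicate 1 (726 to 787), Csf1r at 2271 in fluoxetine replicate 4 (2912 to 3096) and C1qc at 1140 in lithium replicate 3 (828 to 896). WT fluoxetine males had Spi1 at 99.8 in replicate 3 (73.0 to 76.6) and Slc2a5 at 58.52 in replicate 5 (91.2 to 105). Het fluoxetine females had Cd53 at 188.1 in replicate 5 (224 to 229) and Inpp5d at 514.8 in replicate 4 (408 to 413). In Het males Ptprc was 132.9 in lithium replicate 1 (101 to 109.6) and Irf8 was 158.7 in fluoxetine replicate 1 (97.7 to 114). Het fluoxetine male replicate 3, the lowest library for 21 genes, stood apart by this test for none.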

How the results depend on the processing

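Counts of called members were recomputed under 13 alternatives, 2 of them chosen after seeing the data, and 385 of 416 counts stayed within 1.5 times the reported one. Most comparisons had a reported count of 0, and a 0 that stayed 0 was among the 385. That share is therefore no measure of how stable the calls were. With fluoxetine in the WT average, 4 members were called under quantile normalization, 5 with only the groups compared (4 higher, 1 lower), 4 by DESeq2, 5 with the endothelial and mural score as a covariate and 0 without the 16 libraries rich in olfactory bulb markers. Members called in the Het average with fluoxetine were 10 with only the groups compared, 10 without the 16 libraries and 5 with the covariate (2 lower, 3 higher). For Het males with fluoxetine the counts were 0, 0 and 5 (2 lower, 3 higher) in that order, and for Het females 1 without the 16 libraries. Het against WT under fluoxetine gave 0 in males with only the groups compared and 0 without the 16 libraries, and in the average 0 under each of these and 0 with the covariate. The genotype difference in the fluoxetine effect gave 1 after rescaling to equal totals, 1 with a filter at 50 and 4 by DESeq2. Lithium in the Het average gave 8 with only the groups compared, 2 without the 16 libraries, 1 with the covariate (higher) and 8 by DESeq2. In Het males lithium gave 3 by DESeq2, and in Het females 1 by DESeq2 and 1 without the 16 libraries. Lithium in the WT average gave 1 with only the groups compared and 3 with the covariate, and fluoxetine in WT females gave 1 with the covariate. Calls over all genes shifted too. With only the groups compared, Het males with fluoxetine had 269 genes higher and 339 lower, against 2134 and 1903 in the main fit. Het against WT under fluoxetine had 34 and 78 in the average, against 614 and 691. For the genotype difference DESeq2 called 408 and 432, against 129 and 174 by limma. The cause of these shifts was not tested. The median of the 33 genes in Het females with fluoxetine turned from −0.236 to 0.027 under the covariate. It moved from −0.192 to −0.031 for lithium in the Het average, from −0.309 to −0.098 for the genotype difference in the fluoxetine effect and from −0.255 to −0.051 for Het against WT under fluoxetine.

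Leaving out 1 library at a time gave 12 to 20 called members in the Het average with fluoxetine, 1 to 19 in Het males and 1 to 8 in Het females. It gave 1 to 5 in the WT average, 0 to 3 in WT females, 4 to 20 for Het against WT under fluoxetine (0 to 7 in males), and 0 to 16 for the genotype difference (0 to 2 in males). Lithium gave 2 to 8 in the Het average, 0 to 2 in Het males and 0 to 1 in Het females. No single member reversed its direction under any alternative in a comparison where it was called. P2ry12 and Hpgds kept their call in the Het average with fluoxetine in 20 of 20 such fits and in 13 of 13 alternatives. Same-numbered deviations correlated at −0.276 to 0.222. They were not set against differently numbered ones, so whether replicate numbers pair the libraries was not tested. The replicate block moved 1 count by over 1.5 times, from 0 to 1 for lithium in Het males. Among all genes, the share of calls that were higher in the Het average with fluoxetine was 51.3%, and 36.4% after rescaling. In Het males it was 52.9% and 28.3%. In the WT average it was 38.3%, 48.6% under quantile normalization and 27.3% after rescaling, and for the genotype difference 42.6%, 21.6% and 18.6%. DESeq2 gave no adjusted p for 16 member tests.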

Other observations

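Some lists share no gene with the microglial markers. In the Het average of both sexes 4 of 5 erythrocyte markers rose with lithium, where 5.3% of all genes rose, with a median log2 difference of 0.77, among them Hba-a2, a hemoglobin chain, at 0.77 log2 (SE 0.20, adjusted p = 0.0105). In WT mice 3 of the 5 rose with lithium (median 0.69), where 1.9% of all genes rose. With fluoxetine none of the 5 was called in WT mice, where 8.2% of all genes were, or in Het mice, where 32.9% were. Of 12 oligodendrocyte and myelin markers 2 rose and none fell with fluoxetine in Het mice (median 0.39), where 16.9% of all genes rose. In WT mice none of the 12 was called with fluoxetine (median −0.42), where 8.2% of all genes were.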
